A study of Mus musculus with 4 samples.

Results

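The genes described here are 10 core genes of the circadian clock, measured in mouse haploid embryonic stem cells (haESCs) under the chemical mixture RDF and under its solvent DMSO. They are the activators Clock and Arntl (also called Bmal1), the repressors Per1, Per2, Per3, Cry1 and Cry2, the nuclear receptors Nr1d1 and Nr1d2, and the output gene Dbp. They were chosen by name, and all 10 were found among the 23235 gene symbols of the series. Cry1, Clock and Nr1d2 rose in RDF-treated haESCs, and no tested clock gene fell. With no filter on low values Cry1 still passed the test, but Clock and Nr1d2 did not. Per2, the lowest of the 10 genes in DMSO, was 4.24-fold higher in RDF, whereas its paralog Per3 was 1.03-fold higher, and Cry1 was 1.66-fold higher, whereas its paralog Cry2 was 1.06-fold higher.

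In the clock of mammalian cells, CLOCK and ARNTL form a dimer that binds E-boxes and drives the Per and Cry genes, whose proteins return to the nucleus and repress that dimer. A second loop runs through Nr1d1 and Nr1d2, which encode the repressors REV-ERBα and REV-ERBβ of Arntl, and DBP is a factor under E-box control that acts on D-boxes. Mouse embryonic stem cells are known for lacking an overt circadian oscillation although they express clock genes, and oscillation appears as they differentiate. In other cultured cells, forskolin is known to induce Per1 and to set the phase of the clock through CREB.

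The samples were 2 libraries of DMSO-treated and 2 libraries of RDF-treated cells of HG165, an androgenetic haESC line from C57BL/6 mice, which carries a single paternal genome and is 1 line only. RDF is a mixture of Repsox and DMH1, which block TGF-β and BMP4 signalling, with Forskolin, which activates adenylate cyclase and so raises cAMP. The general culture protocol gives a medium with 15% serum and 1000 U/ml LIF for all 4 samples unless noted otherwise, and the growth protocol in the labels names feeder cells, which the study's methods say were left out of most experiments. Doses, length of treatment, time of harvest and the share of diploid cells of these 4 samples are not given in the sources used here, and nothing says whether the 2 samples of a condition came from separate cultures, so p-values measure only the spread between these samples.

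From 150 ng of RNA each, libraries were prepared with a stranded mRNA kit, and the values are FPKM, the fragments mapped to a gene, scaled to its transcript length and to the mapped fragments of the library. The depth, estimated from the steps between low values, was between 9600000 and 12420000 fragments a library. All 10 markers of embryonic stem cells were above 0 in every library. By the test described below, 4 of the 10 rose in RDF (40%, against 13.3% of all genes tested), led by Zfp42, Klf4 and Tfcp2l1. Another 4 fell (against 8.28%), led by Dppa5a, Utf1 and Tdgf1. Their summed level was 7826 to 7889 FPKM in DMSO and 4665 to 5131 FPKM in RDF. Most of this sum was Dppa5a alone, with 5493 and 5539 FPKM in DMSO and 3232 and 2839 FPKM in RDF, so it does not describe the other markers. Of 12 fibroblast markers, which feeder cells would carry, Fap was at 0 in some libraries, and the summed level was 47.0 to 48.2 FPKM in DMSO and 36.7 to 38.3 FPKM in RDF. Of the 8 fibroblast markers that were tested, 4 fell (against 8.28% of all genes tested), namely Col1a1, Col1a2, Postn and Thy1. Dcn rose (12.5%, against 13.3%). Both RDF values lay below both DMSO values for 4 of the 8 (against 28.5%). They lay above both DMSO values for 3 of the 8 (against 37.1%), namely Dcn, Pdgfrb and Twist1. The latter also held for Lum and Pdgfra, which were too low to be tested, so the markers moved in both directions. The 8 markers of primitive endoderm summed to 17.5 to 18.0 FPKM in DMSO and 22.6 to 25.4 FPKM in RDF. Of the 3 of them that were tested, Gata6 rose (33.3%, against 13.3% of all genes tested) and 0 fell (against 8.28%). Gata6 had 2.83 and 1.45 FPKM in DMSO and 4.36 and 4.19 FPKM in RDF (limma adjusted p = 0.0428). Its limma adjusted p was 0.114 with no filter on low values, 0.0511 with median-ratio scaling and 0.0620 with quantile normalization. The call therefore rests on these choices. The part of these shifts in the results was not tested, and in bulk RNA a change in the share of cells that express a gene cannot be told apart from a change in RNA per cell.

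Promoter sequences of the clock genes are shown because E-boxes and D-boxes are the sites through which the loop acts on its own genes. The 250 bases before each annotated start were taken from RefSeq on the build GRCm38.p6, for 9 of the 10 genes with 13 annotated starts in all. The promoter of Per2 was not analysed here. The search covered both strands for the E-box CACGTG, the E′-box CACGTT, the D-box as TTATGTAA or TTACGTAA, the ROR element, ANNTN followed by GGTCA, and the cAMP response element TGACGTCA. The sequences with a match are printed 5′ to 3′ on the strand of the gene, with the matches in capitals.
Cry1 (chr10:85185055-85185304, minus strand): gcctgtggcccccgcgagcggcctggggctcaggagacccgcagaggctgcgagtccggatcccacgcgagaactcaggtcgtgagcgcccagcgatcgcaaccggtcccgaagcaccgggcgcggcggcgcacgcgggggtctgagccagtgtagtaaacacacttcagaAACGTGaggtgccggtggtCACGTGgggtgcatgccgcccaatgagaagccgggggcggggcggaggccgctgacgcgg
Per1 (chr11:69098699-69098948, plus strand): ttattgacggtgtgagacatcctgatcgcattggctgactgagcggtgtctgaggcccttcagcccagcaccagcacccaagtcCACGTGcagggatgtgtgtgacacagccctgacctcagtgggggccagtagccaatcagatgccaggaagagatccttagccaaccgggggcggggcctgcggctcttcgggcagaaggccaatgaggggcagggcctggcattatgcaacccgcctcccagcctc
Cry2 (chr2:92434070-92434319, minus strand): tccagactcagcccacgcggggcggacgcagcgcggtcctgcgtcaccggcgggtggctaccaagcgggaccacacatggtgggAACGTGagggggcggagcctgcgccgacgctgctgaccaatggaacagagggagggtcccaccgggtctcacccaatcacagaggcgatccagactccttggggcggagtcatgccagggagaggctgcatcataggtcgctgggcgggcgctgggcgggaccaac
Nr1d1 (chr11:98775378-98775627, minus strand): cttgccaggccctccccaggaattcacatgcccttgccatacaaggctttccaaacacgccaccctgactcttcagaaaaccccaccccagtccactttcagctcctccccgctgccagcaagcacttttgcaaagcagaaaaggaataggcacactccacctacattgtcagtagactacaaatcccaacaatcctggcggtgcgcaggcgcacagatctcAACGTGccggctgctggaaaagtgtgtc
Per3 (chr4:151044666-151044915, minus strand): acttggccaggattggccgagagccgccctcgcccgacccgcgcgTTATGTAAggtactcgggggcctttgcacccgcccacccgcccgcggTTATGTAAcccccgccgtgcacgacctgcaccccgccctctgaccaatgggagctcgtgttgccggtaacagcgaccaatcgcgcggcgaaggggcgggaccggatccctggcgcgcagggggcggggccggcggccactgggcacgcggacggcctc

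Cry1 held an E-box 60 bases before its start and an E′-box 79 bases before it, on the opposite strand. Per1 held an E-box 166 bases before the first of its annotated starts. Cry2 and Nr1d1 each held an E′-box on the opposite strand, 166 and 28 bases before the start. For both, unlike the other genes, the bases just after that start matched no protein-coding transcript of the gene in GENCODE M1. These distances are therefore less certain. Per3 held the D-box TTATGTAA at 205 and at 158 bases before its start. None of these motifs was found in this window of Clock, Arntl, Nr1d2 or Dbp. The full cAMP response element, the ROR element and the form TTACGTAA were found in no window of the 9 genes. Among 32841 promoter windows of the same length, 6.02% held the E-box, 3.85% the E′-box, 0.819% this form of the D-box, 0.113% the form TTACGTAA, 2.04% the ROR element and 1.55% the full cAMP response element. The short form TGACG of the cAMP response element, left in lower case, was present in 17.8% of all windows and in those of Cry1, Cry2 and Per1. A match describes letters only and is not a measured binding site.

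The clock genes covered a wide range of levels in DMSO-treated haESCs. Nr1d1 was highest at 45.7 ± 1.91 FPKM (SD, n = 2), above 82.5% of the 11733 genes tested, and Per1 followed at 33.7 ± 1.05 FPKM. Below them came Cry1, Cry2, Nr1d2, Arntl, Dbp and Clock in this order, with Clock at 1.28 ± 0.275 FPKM, above only 4.90% of the genes tested. Per3, at 0.479 ± 0.0325 FPKM, and Per2, at 0.284 ± 0.00578 FPKM (SD, n = 2 each), were lowest. No neighbouring genes in this order had overlapping values in DMSO. In RDF the order was the same except that Per2 stood above Per3, and again no neighbours overlapped. As FPKM is per length, these levels can be set side by side.

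**Figure D1:**
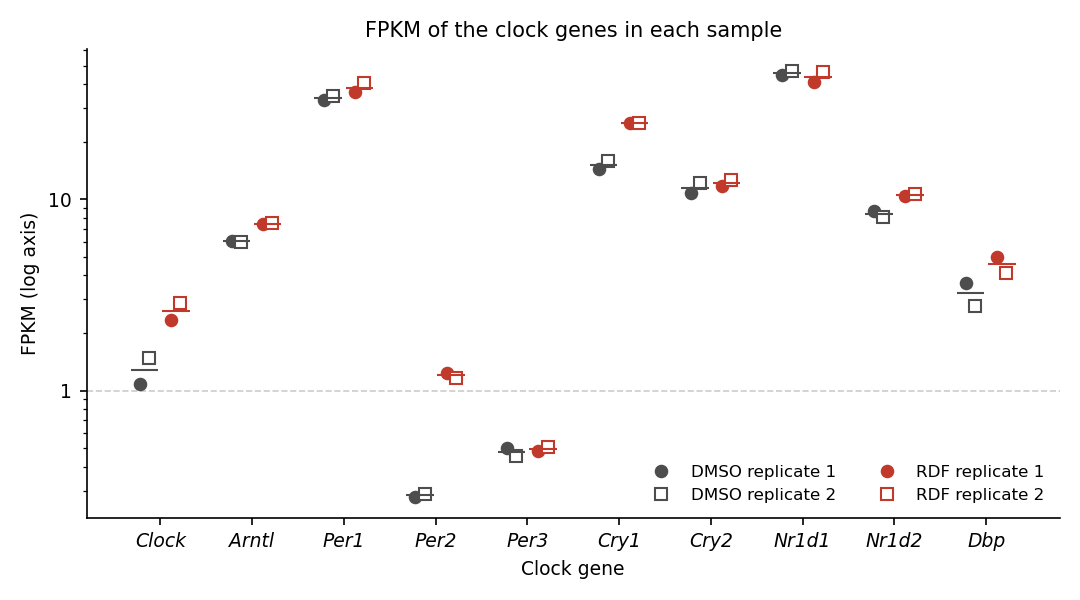
FPKM of the 10 clock genes on a log axis, with circles for replicate 1, squares for replicate 2, grey for DMSO and red for RDF; short lines are the means of 2 samples and the dashed line is 1 FPKM. The RDF values of Per2, Clock and Cry1 lie well above their DMSO values, while those of Cry2, Nr1d1 and Per3 overlap.

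Whether RDF changed a gene was tested with limma on log2(FPKM + 1) over the 11733 genes whose mean reached 1 FPKM, with Benjamini-Hochberg adjustment over all of them. On this scale the change of a low gene is understated. Of the 10 clock genes 8 passed this minimum, each of them with a DMSO mean of at least 1 FPKM, and Per2 and Per3 lay under it. Of the 8 genes, 3 rose (37.5%), against 13.3% of all genes tested, and 0 fell, against 8.28%. At an unadjusted p under 0.05, none of them was lower either. Both RDF values lay above both DMSO values for 6 of the 8 genes, against 37.1% of all genes tested, and below them for 0, against 28.5%. The median log2 fold change was 0.28 over the 8 genes and 0.03 over all genes tested. With median-ratio scaling or quantile normalization, as with the deposited FPKM, 7 of the 8 genes had a positive log2 fold change and Nr1d1 a negative one.

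**Figure D2:**
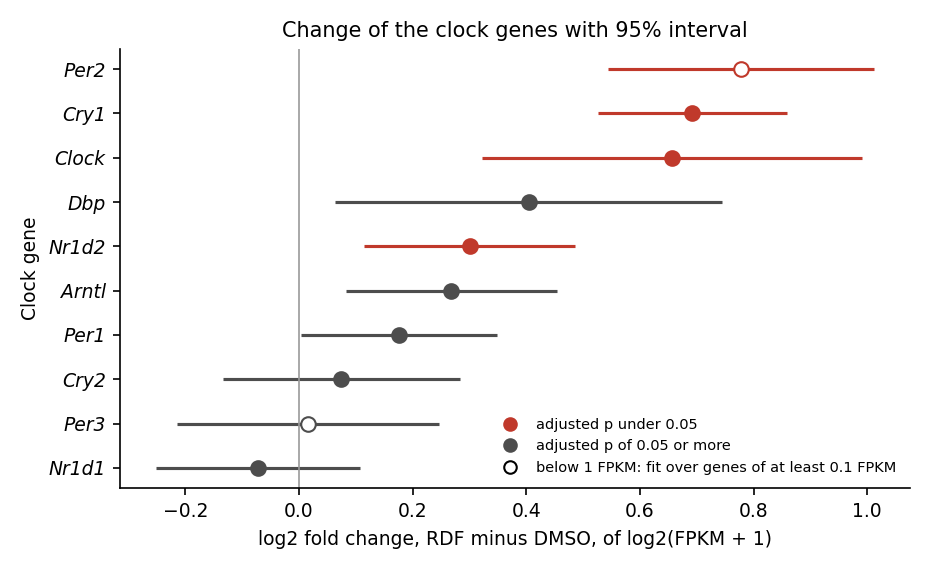
Log2 fold change of each clock gene, RDF minus DMSO, with its 95% interval from limma; red marks an adjusted p under 0.05, and open circles mark Per2 and Per3, taken from a fit over genes of at least 0.1 FPKM. Per2, Cry1 and Clock lie highest, between 0.66 and 0.78, and the intervals of Cry2, Per3 and Nr1d1 include 0.

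**Figure D3:**
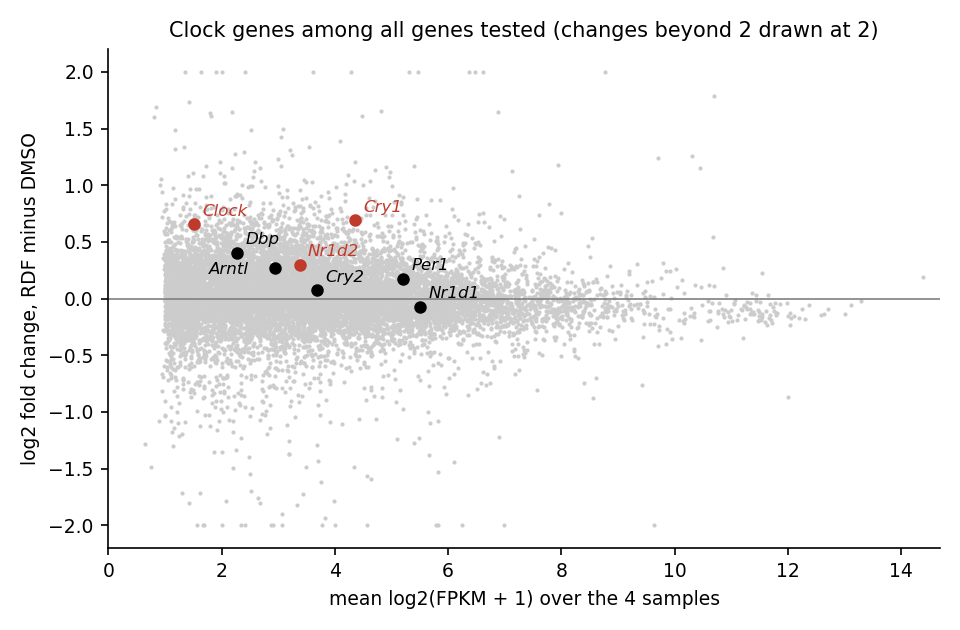
Log2 fold change against mean log2(FPKM + 1) for the 11733 genes tested in grey, with the 8 tested clock genes named; red marks an adjusted p under 0.05. Cry1, at 0.69, is the highest of the named points, while Nr1d1 and Cry2 lie near 0.

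Of the activators, Clock rose and Arntl did not pass the test. Clock encodes a bHLH-PAS factor with acetyltransferase activity and lies on chromosome 5 from 76639992 to 76733817 of the build NCBIM37, which is mm9. It had 1.09 and 1.48 FPKM in DMSO replicates 1 and 2, and 2.33 and 2.85 FPKM in RDF replicates 1 and 2. Both RDF values were above both DMSO values, a 2.02-fold difference of the means. Its log2 fold change was 0.66 (SE 0.137, limma adjusted p = 0.0224). By the estimated depth and its longest transcript, Clock was covered by about 90.3 and 140 fragments in DMSO and by 250 and 278 in RDF. The adjusted p of Clock was 0.0592 without DMSO replicate 1, 0.0743 without RDF replicate 1, 0.134 without RDF replicate 2 and 0.0619 with no filter on low values, so the call rests on these choices. Arntl, its dimer partner, lies on chromosome 7 from 120350979 to 120457636. It had 6.07 and 5.98 FPKM in DMSO and 7.42 and 7.50 FPKM in RDF. The groups did not overlap and the replicates lay close together, with a log2 fold change of 0.27 (SE 0.0763, 95% interval from 0.08 to 0.45, limma adjusted p = 0.0536). Without a mean-variance trend the limma adjusted p of Arntl was 0.0470, so its place at the threshold also rests on the setting.

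The Per genes, which encode the limiting partners of the repressor complex, stood at very different levels, and their values under RDF are given in turn. Per1, located at 68908719 to 68923462 of chromosome 11, had 33.0 and 34.5 FPKM in DMSO and 36.2 and 40.3 FPKM in RDF. Both RDF values were the higher, by 1.13-fold in the means, without passing the test (log2 fold change 0.18, 95% interval from 0.00 to 0.35, adjusted p = 0.125 from limma). Per2, located at 93312561 to 93355907 of chromosome 1, had 0.280 and 0.288 FPKM in DMSO and 1.23 and 1.17 FPKM in RDF. The replicates of each condition nearly coincided and the conditions were far apart. The values of Per2 rest on about 15.7 and 18.4 fragments in DMSO and 89.4 and 77.0 fragments in RDF. Its mean of 0.742 FPKM kept it out of the test above. In a fit over the 15273 genes whose mean reached 0.1 FPKM, where 9.40% of genes rose, Per2 rose with a log2 fold change of 0.78 (SE 0.0954, limma adjusted p = 0.00690). On the log2(FPKM + 0.1) scale over the same genes, a setting added after the data were seen, this was 1.76 (limma adjusted p = 0.00877). Per3, located at 150377761 to 150418774 of chromosome 4, had 0.502 and 0.456 FPKM in DMSO and 0.481 and 0.510 FPKM in RDF. These values overlapped, and in the fit over 15273 genes the log2 fold change was 0.02 (95% interval from -0.21 to 0.25, adjusted p = 0.926). About 28.9 to 35.9 fragments stood behind each Per3 value, so a small change could not be detected at this depth.

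The cryptochromes, flavoproteins that bind and block the CLOCK-ARNTL dimer, were of intermediate level. Cry1 lies on chromosome 10 from 84594447 to 84647799, with the E-box and the E′-box shown above. It had 14.5 and 15.8 FPKM in DMSO and 25.2 and 25.0 FPKM in RDF. The lowest RDF value was well above the highest DMSO value, and about 418 to 941 fragments stood behind each. Cry1 rose with a log2 fold change of 0.69 (SE 0.0684, 95% interval from 0.53 to 0.86, limma adjusted p = 0.00279), the largest of the 8 tested clock genes on the log2(FPKM + 1) scale, although the fold of the means was larger for Clock. Its adjusted p stayed between 0.00359 and 0.0423 when each library was left out in turn. Cry2, located at 92243803 to 92274200 of chromosome 2, had 10.8 and 12.2 FPKM in DMSO and 11.7 and 12.6 FPKM in RDF. These ranges overlapped, and the log2 fold change was 0.07 (95% interval from -0.13 to 0.28, adjusted p = 0.561 from limma). The gene D930015M05Rik overlaps Cry2 on the opposite strand and was at 0.0915 to 0.710 FPKM, and whether the authors' counting used strand is not given in the sources used here.

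Nr1d1 and Nr1d2, the heme-binding repressors of Arntl, stood at different levels. Nr1d1, located at 98629246 to 98636647 of chromosome 11, had 44.4 and 47.1 FPKM in DMSO and 41.0 and 46.0 FPKM in RDF. The groups overlapped, with a log2 fold change of -0.07 (95% interval from -0.25 to 0.11, adjusted p = 0.511 from limma). It overlaps Thra on the opposite strand by 1075 bases, and Thra was at 5.23 to 6.95 FPKM. Nr1d2, located at 19036568 to 19071641 of chromosome 14, had 8.70 and 8.04 FPKM in DMSO and 10.4 and 10.6 FPKM in RDF. Both RDF values were above both DMSO values. It rose by 1.26-fold in the means, with a log2 fold change of 0.30 (SE 0.0762, limma adjusted p = 0.0389). The call rests on every library, since the adjusted p of Nr1d2 was 0.0594 without DMSO replicate 1, 0.143 without DMSO replicate 2, 0.134 without RDF replicate 1 and 0.160 without RDF replicate 2, and it was 0.0512 with median-ratio scaling and 0.0640 with quantile normalization.

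Dbp, a PAR-bZIP factor whose RNA swings widely over the day in oscillating tissues, lies on chromosome 7 from 52960458 to 52965525. It had 3.67 and 2.77 FPKM in DMSO and 5.02 and 4.13 FPKM in RDF. The lower RDF value was above the higher DMSO value, but the replicates of each condition lay apart. The log2 fold change of 0.40 did not pass the test (SE 0.140, 95% interval from 0.06 to 0.75, limma adjusted p = 0.0890), and without DMSO replicate 1 the adjusted p was 0.0442. The opposite-strand gene Sphk2 overlaps Dbp by 689 bases and had 2.75 and 3.25 FPKM in DMSO and 5.03 and 5.20 FPKM in RDF. Its part in the values of Dbp was not tested.

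Ratios between clock genes within a sample do not depend on scaling between samples. The ratio of Cry1 to Cry2 was 1.34 and 1.30 in DMSO and 2.15 and 1.99 in RDF. Per1 exceeded Per2 by 118-fold and 120-fold in DMSO, against 29.4-fold and 34.5-fold in RDF. The balance of the low Per genes turned over. Per2 was at 0.557 and 0.631 of the Per3 level in DMSO, but at 2.56 and 2.29 of it in RDF. Nr1d1 stood 5.10-fold and 5.86-fold above Nr1d2 in DMSO, and 3.94-fold and 4.32-fold above it in RDF. Clock was at 0.179 and 0.247 of the Arntl level in DMSO, and at 0.314 and 0.381 of it in RDF. The conditions did not overlap in any of the 5 ratios. With 2 samples a condition, the smallest p of an exact two-sided permutation test is 0.333, which was the value for each of the 5 ratios before and after Benjamini-Hochberg adjustment, so none can pass the threshold.

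**Figure D4:**
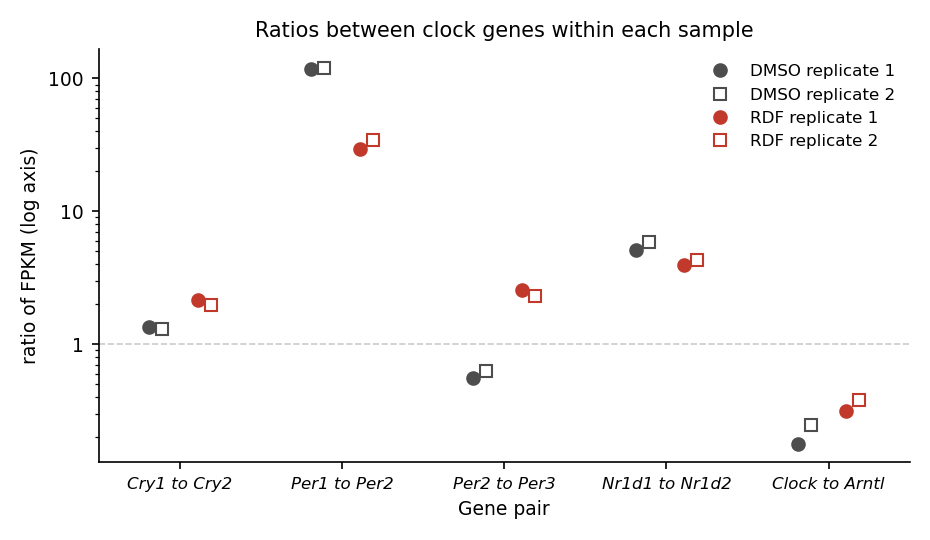
Ratio of FPKM between pairs of clock genes in each sample, on a log axis, with grey for DMSO, red for RDF, circles for replicate 1 and squares for replicate 2; the dashed line marks equal levels. Per2 to Per3 crosses that line, from 0.557 and 0.631 in DMSO to 2.56 and 2.29 in RDF.

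Further genes of the clock were described in lists of transcription factors, of protein modifiers and cofactors, and of outputs. Of these 43 genes 37 were tested, and 12 rose (32.4%, against 13.3% of all genes tested) and 1 fell (against 8.28%), with a median log2 fold change of 0.17, against 0.03 over all genes tested. Among the factors, 6 of 11 were tested. Ciart, which encodes a repressor of the CLOCK-ARNTL dimer and is listed as Gm129, had 45.7 and 46.8 FPKM in DMSO and 61.4 and 60.4 FPKM in RDF, and it rose by a log2 fold change of 0.39 (adjusted p = 0.00632 from limma). Bhlhe40, which encodes the E-box repressor DEC1, was the only one of the 37 genes called lower by the test. It had 179 and 183 FPKM in DMSO and 112 and 116 FPKM in RDF, a log2 fold change of -0.66 (SE 0.0533, limma adjusted p = 0.00159). Its paralog Bhlhe41 had 17.1 and 10.7 FPKM in DMSO and 21.5 and 20.4 FPKM in RDF (log2 fold change 0.59, adjusted p = 0.0738), a pair of DMSO values that lay far apart. Nfil3 had 6.11 and 6.29 FPKM in DMSO and 5.12 and 4.39 FPKM in RDF (log2 fold change -0.33, limma adjusted p = 0.0592). The limma adjusted p of Nfil3 was 0.0498 with median-ratio scaling and 0.0412 with quantile normalization, where it was called lower.

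Among the 22 modifiers and cofactors, 21 were tested, 7 rose (33.3%, against 13.3% of all genes tested), 0 fell (against 8.28%) and 14 did not pass. Ep300, a histone acetyltransferase that joins the CLOCK-ARNTL dimer, had 5.29 and 5.01 FPKM in DMSO and 9.84 and 11.1 FPKM in RDF, a log2 fold change of 0.90 (SE 0.0895, limma adjusted p = 0.00286). Ncor1, the corepressor that NR1D1 recruits, rose by a log2 fold change of 0.48 (adjusted p = 0.00632), and Cipc, which encodes an inhibitor of CLOCK and is listed as 2310044G17Rik, by 0.42 (adjusted p = 0.0238). Also named, after their values were seen, are the casein kinases Csnk1e and Csnk1d, which phosphorylate PER proteins, and Fbxw11, a ubiquitin ligase subunit that recognises phosphorylated PER. Csnk1e rose by a log2 fold change of 0.31, Fbxw11 by 0.28 and Csnk1d by 0.23, with adjusted p between 0.0271 and 0.0385 from limma. Under median-ratio scaling Csnk1d had an adjusted p of 0.0517 and Csnk1e one of 0.0591. With no filter on low values the limma adjusted p was 0.0585 for Csnk1d, 0.0870 for Csnk1e and 0.0619 for Cipc. Without a mean-variance trend it was 0.0782 for Csnk1d and 0.0747 for Csnk1e.

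Of the 10 outputs, all tested, 4 rose (40%, against 13.3% of all genes tested) and 0 fell (against 8.28%). Wee1, the kinase that holds back mitotic entry and a known E-box target, had 24.8 and 22.7 FPKM in DMSO and 37.9 and 37.0 FPKM in RDF, with no overlap. Wee1 rose by a log2 fold change of 0.64 (SE 0.0655, limma adjusted p = 0.00310), which lay between 0.58 and 0.70 when each library was left out in turn. By quantitative PCR in HG165 and other lines, and by western blot in another line, the study reported no change of Wee1 under RDF. It reported the same for regulators upstream of Wee1, and its primers include Cry1, Cry2 and Bmal1. The reason for this difference from the RNA-seq values was not tested. Noct, a rhythmic gene listed as Ccrn4l, rose by 0.64 (adjusted p = 0.0183), Nampt, of NAD synthesis, by 0.28 (adjusted p = 0.0300), and Cdk1, the kinase that WEE1 inhibits, by 0.20 (adjusted p = 0.0475). The adjusted p of Cdk1 was 0.0782 under median-ratio scaling, 0.0550 with the 0.1 FPKM minimum and 0.101 without a mean-variance trend, and with no filter on low values it was 0.0642 for Cdk1, 0.0589 for Noct and 0.0649 for Nampt. Of the 13 genes called in these lists, 3 kept an adjusted p under 0.05 when each library was left out in turn, namely Bhlhe40, Ep300 and Wee1. With RDF replicate 1 or RDF replicate 2 left out, 2 of these genes were still called higher, and without DMSO replicate 2 it was 6.

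**Figure D5:**
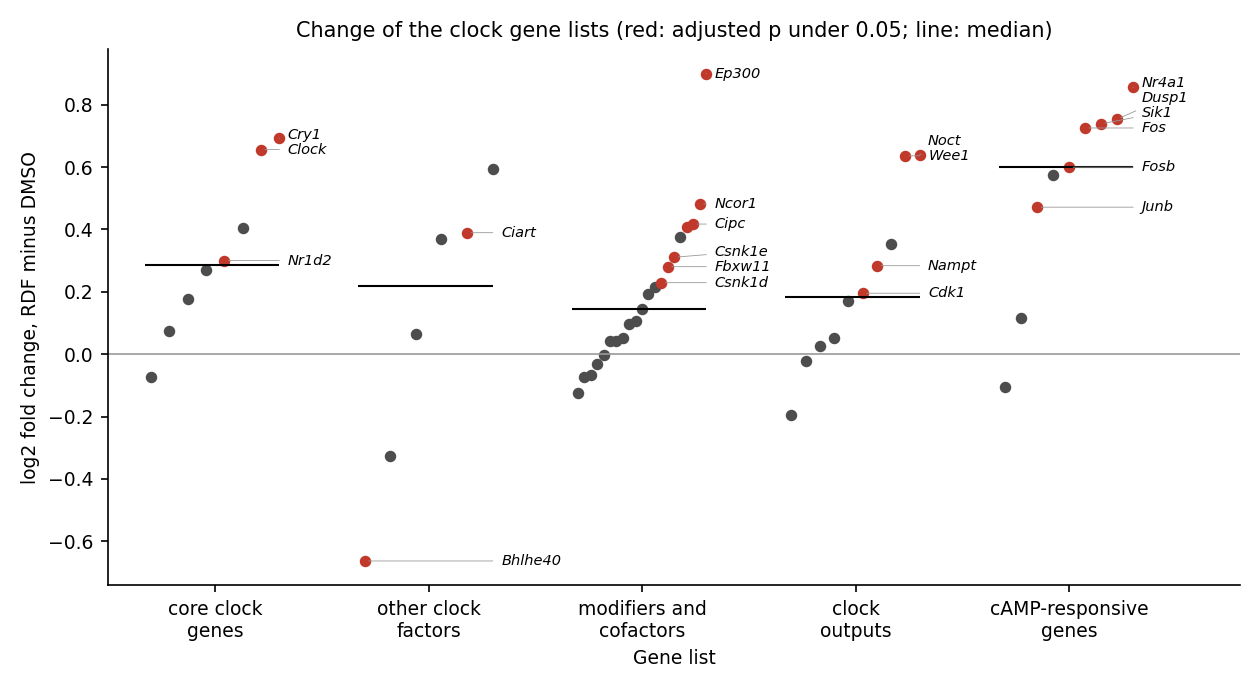
Log2 fold change, RDF minus DMSO, of the tested genes of each list, ordered by size within the list; red marks an adjusted p under 0.05, with gene names beside all but 1 of the red points, and the line is the median of the list. Bhlhe40, at -0.66, is the only red point below 0.

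Genes known to respond to cAMP were set beside the clock genes, because Forskolin raises cAMP and is known to induce Per1 in other cultured cells. Of 12 such genes 9 were tested, 6 rose (66.7%, against 13.3% of all genes tested) and 0 fell (against 8.28%), with a median log2 fold change of 0.60. They were Nr4a1 with a log2 fold change of 0.86, Dusp1 with 0.75, Sik1 with 0.74, Fos with 0.73, Fosb with 0.60 and Junb with 0.47, and their adjusted p lay between 0.00129 and 0.0106 from limma. Without RDF replicate 2 the adjusted p was 0.0755 for Fosb and 0.0590 for Junb. Crem, whose inducible form is a classical cAMP target, had 7.81 and 6.14 FPKM in DMSO and 6.80 and 5.97 FPKM in RDF (log2 fold change -0.11, adjusted p = 0.574). The 6 genes were picked because they rose, so setting Per1 against them alone decides nothing. Among the 3 tested genes that did not pass, the log2 fold change was 0.57 for Nr4a2, 0.12 for Atf3 and -0.11 for Crem. Nr4a2 had 0.715 and 0.634 FPKM in DMSO and 0.901 and 2.26 FPKM in RDF. It reached the minimum mean of 1 FPKM only through RDF replicate 2, so it gives no firm upper value. Per1, at 0.18, lay above Atf3 and Crem, and its difference from the cAMP-responsive genes was not tested.

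Over the 4 samples, the pattern of Cry1 was most closely matched by those of Flrt3, C1qtnf6 and AU015836. Likeness was the Euclidean distance between deviations of log2(FPKM + 1) from each gene's mean, which was 0.0159 for Flrt3, 0.0222 for C1qtnf6 and 0.0233 for AU015836. Flrt3 had 0.905 and 1.08 FPKM in DMSO and 2.19 and 2.2 FPKM in RDF. With 4 samples, such likeness says little more than that the change and the replicate differences were of similar size.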

How the data were processed

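RNA-seq of 4 libraries was analysed, 2 of DMSO-treated and 2 of RDF-treated HG165 haESCs, grouped by their labels. The deposited FPKM were made by the authors with Cufflinks on the UCSC mm9 annotation, after mapping with Tophat. The submitters' processing notes name TopHat2 2.0.14, Bowtie2 2.1.0 and Cufflinks 2.2.1. Handling of strand and of reads that match several genes is not given in the sources used here.

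Clock genes were taken by symbol, and older symbols were matched through RefSeq synonyms. The clock genes and the lists were chosen with earlier results of these data known. limma 3.58.1 in R 4.3.3 (lmFit, eBayes with a mean-variance trend) was run on log2(FPKM + 1) over genes whose mean reached 1 FPKM, RDF against DMSO without a block, with Benjamini-Hochberg adjustment over all genes tested and a threshold of 0.05. The fit was tested on simulated data. Named were all 10 clock genes, Wee1, list genes that passed the test (of lists with more than 6, the 3 largest changes in each direction) and the 3 genes nearest in pattern to the clock gene with the largest tested log2 fold change. 1 further gene of the lists is not reported here by name. Bhlhe41, Nfil3, Crem, Nr4a2, Atf3, Lum, Pdgfra, Pdgfrb, Twist1 and the overlapping genes were named after their values were seen.

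Positions and transcript lengths came from GENCODE M1 on NCBIM37. Depth was estimated from single-transcript genes of at least 1500 nucleotides, whose FPKM times length steps by whole fragments. Only 42.1% to 46.1% of the low values came within 0.1 of whole fragments. Fragments per gene are therefore approximate and describe counting precision only. Alternatives were another pseudocount, filters, scalings, no trend, a replicate block, and leaving out each library.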

Additional observations from a re-analysis of the deposited data

How the results depend on the processing

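Cry1 and Wee1 kept their direction and an adjusted p under 0.05 under every alternative with a test, and no value of a clock gene that passed the test changed sign. The number of clock genes called higher, 3, was 2 to 4 under the settings that kept all libraries and 1 to 2 with a library left out. It was 1 without RDF replicate 1 and 1 without RDF replicate 2. The clock genes called higher also differed between settings. They were Clock, Cry1 and Per2 with the 0.1 FPKM minimum, and Cry1 and Per2 with no filter on low values. Without a mean-variance trend Arntl was added to Cry1, Clock and Nr1d2. Counts over all genes, 1561 higher and 972 lower, were 942 and 606 with no filter on low values. With a library left out they ranged from 253 to 1121 higher and from 195 to 731 lower. Of the 37 other clock genes, 12 higher and 1 lower, 6 were called higher with no filter, 2 to 10 with a library left out, and 2 were called lower with median-ratio scaling or quantile normalization. With 0.1 FPKM added to both genes, the log2 difference of the ratio of Per1 to Per2 moved from -1.90 to -1.58 and that of Per2 to Per3 from 2.03 to 1.72. The added 0.1 FPKM is large beside Per2 in DMSO, at 0.284 FPKM, so by arithmetic it shrinks these 2 differences. The cause of the other moves was not tested, except that 3 samples leave fewer degrees of freedom and a wider filter tests more genes. With a library left out, a lone sample is assumed to vary like the other group.

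The labels give both conditions replicates 1 and 2. Deviations of same-numbered samples had a Pearson r of 0.134 across genes, and nothing else pairs them. With the replicate number as a block, 4 clock genes were called higher and 0 lower, with Dbp added (adjusted p = 0.0370), against 1651 higher and 1066 lower over all genes. Depth limits Per2, Per3 and Dbp most, as they rest on the fewest fragments.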
